A study of Drosophila melanogaster with 17 samples.

Results

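Gene expression in sorted intestinal progenitor cells of adult Drosophila melanogaster was compared between flies that carried Lactobacillus brevis and flies that carried Lactobacillus plantarum. Both groups had the control genotype, labelled esgts, and each holds 3 libraries, which makes 6 of the 17 libraries of the series. The 6 were taken by their labelled genotype and bacterium, and all 17737 genes of the count table were read. The other libraries come from germ-free control flies (2 libraries) and from flies of the genotype labelled for Notch RNA interference (RNAi) with L. brevis, L. plantarum or no bacteria (3 libraries each). They entered the same fit and so helped to set the spread behind each p-value. The germ-free controls also place the genes found here, and the Notch RNAi libraries with bacteria give a second comparison and the test of a difference between genotypes.

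The flies of both groups were adult virgin females held for 5 days at 25 °C, associated with 1 bacterial species overnight and moved to 29 °C for 5 days. In an esgts line a temperature-sensitive system lets a driver act in escargot-expressing progenitor cells at the warm temperature and marks them with green fluorescent protein (GFP). Each library came from small GFP-positive cells sorted from 100 pooled guts, so a library is an average over many flies, and the gate does not part stem cells from their undifferentiated daughters. The series' design text calls the libraries of a group biological replicates. They are named brevis 1 to 3 and plantarum 1 to 3 here.

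The stem cells of the fly midgut divide to renew the epithelium, and their daughters become absorptive enterocytes or hormone-secreting enteroendocrine cells, a choice in which Notch signalling takes part. The progenitors sit on a basement membrane, to which integrins attach them, next to the visceral muscle, and ligands of the epidermal growth factor (EGF) receptor promote their division. Lactobacilli are common inhabitants of the fly gut, and peptidoglycan recognition proteins detect cell wall fragments of gut bacteria and start the Imd response.

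Total counts were 31492947 to 32784292 in the L. brevis libraries and 25700374 to 29625083 in the L. plantarum libraries. Ribosomal RNA genes took 14.6% ± 1.46 and 13.5% ± 0.972 of the counts (SD, n = 3 each). The progenitor markers Sox100B and Sox21a were present in all 6 libraries, at 961 to 1118 and 316 to 383 CPM (read counts scaled to a common library size), and so was the Notch target klu at 203 to 281 CPM. Markers of differentiated cells were also present in every library, with 2751 to 5248 CPM of the trypsin gene alphaTry and 2168 to 3204 CPM of the enteroendocrine peptide gene Tk. Brevis 3 stood apart by muscle RNA. The summed level of 8 genes that define muscle was 762 CPM there, against 27.0 and 18.02 CPM in brevis 1 and 2, 30.6, 168 and 29.6 CPM in plantarum 1 to 3, and 15.5 and 28.5 CPM in the germ-free controls. The first principal component of the 6 libraries carried 35.4% of the variance and placed brevis 3 (30.1) and plantarum 2 (23.2) on one side and brevis 1 and 2 (-21.8 and -17.8) and plantarum 1 (-10.8) on the other. The second carried 20.6% and parted the groups, with the L. brevis libraries at -20.0 to -9.65 and the L. plantarum libraries at 4.95 to 23.3, of which plantarum 1 was the nearest to L. brevis. Across genes, log2 CPM of plantarum 1 correlated with brevis 1 and 2 at r = 0.9758 and 0.9765, and with plantarum 2 and 3 at r = 0.9718 and 0.9749.

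Of 11786 genes tested, 331 were called different between the bacteria by the quasi-likelihood test of edgeR (Benjamini-Hochberg adjusted p under 0.05), which is 2.81% of the genes. Levels were higher with L. brevis for 115 genes (0.976%) and lower for 216 (1.83%). Most changes were small: the median log2 fold change (log2FC), always given as L. brevis over L. plantarum, was 0.50 among genes called higher and -0.64 among genes called lower, and 46 called genes changed at least 2-fold, 7 upward and 39 downward. In 313 of the 331 the CPM ranges of the groups did not overlap, which held for 20.3% of all genes tested. The number of calls rested on single libraries. It was 21 without brevis 1, 143 without brevis 2, 367 without brevis 3, 1292 without plantarum 1, 28 without plantarum 2 and 2 without plantarum 3. Without both brevis 3 and plantarum 1 it was 1628, and without brevis 3 and plantarum 2 it was 8. Each of the 331 kept its sign in all 6 fits that left out 1 library, whereas 1 of them, Lmpt, was called in all 6. The kept signs were largely set in advance, since the groups of 313 genes did not overlap in these same libraries. The other groups of the fit mattered as well: with the spread taken from the 6 libraries alone 6 genes were called, 1 higher and 5 lower. Of the 70 called genes named here, Lmpt, vn, LpR2, Nrt and GstD2 were called there (edgeR adjusted p = 0.0350 for each) and the remaining ones were not (up to 0.289).

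**Figure D1:**
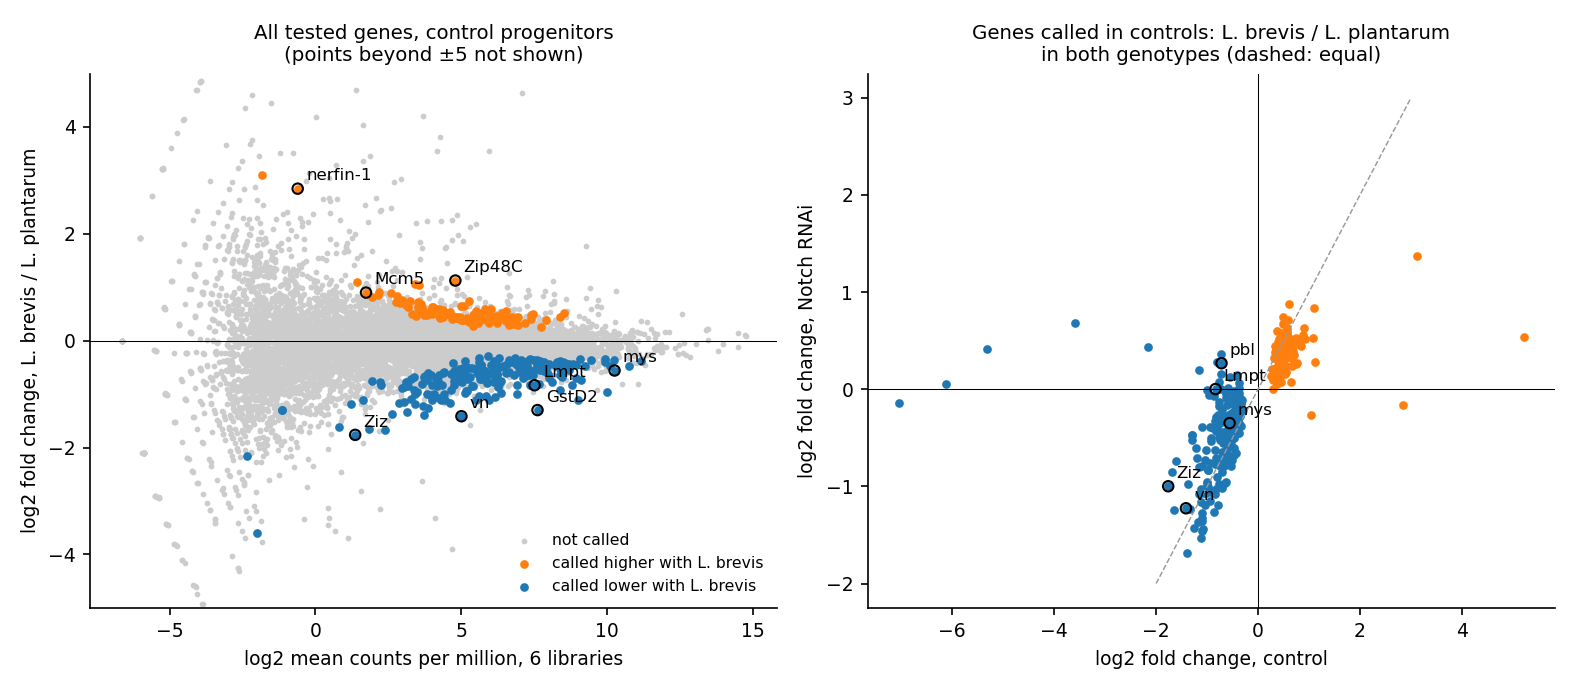
Left, log2 fold change of every tested gene in control progenitors (y axis, L. brevis over L. plantarum) against its log2 mean CPM over the 6 libraries (x axis), with the 115 genes called higher in orange, the 216 called lower in blue and labelled genes circled. Right, the 331 called genes with their log2 fold change in controls (x axis) and under Notch RNAi (y axis), where 310 points lie in the quadrants of equal sign.

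Genes called lower with L. brevis were long. Their median exon length was 4569 bases, against 1834 for all tested genes and 1277 for genes called higher. Of the genes called lower, 152 were among the longest 25% of genes and 12 among the shortest 25%, and of those called higher 10 and 38. Over all genes of these classes, called or not, the median log2FC was -0.21 for the longest and 0.10 for the shortest genes. The level of the longest class relative to the shortest, on the log2 scale and against the mean of the 6 libraries, was -0.44, -0.12 and 0.08 in brevis 1 to 3 and -0.05, 0.26 and 0.25 in plantarum 1 to 3, so that brevis 3 lay above plantarum 1. When each library's trend with exon length was removed, an alternative chosen after seeing the data, 328 genes were called, of which 186 were among the 331. The part of length in any single change below was not tested. Calls that ended with the trend removed are named with their group.

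**Figure D2:**
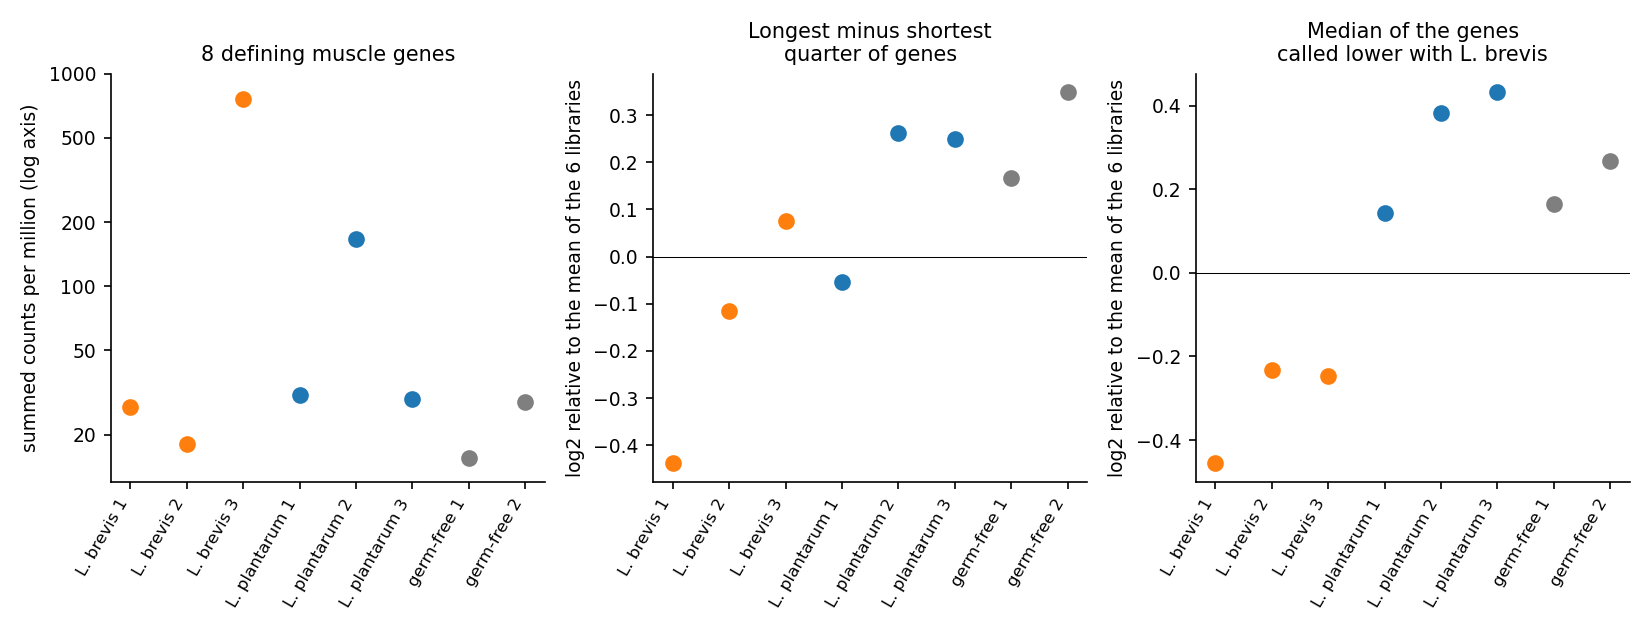
Per library, the summed CPM of 8 defining muscle genes (left, log axis), the median log2 level of the longest 25% minus the shortest 25% of genes (middle) and the median log2 level of the 216 genes called lower (right), the last pair relative to the mean of the 6 libraries. Brevis 3 leads the muscle sum at 762 CPM. The length measure orders the 6 libraries from brevis 1 (-0.44) to plantarum 2 (0.26), with the germ-free controls at 0.17 and 0.35. The genes called lower were chosen on the values of the 6 libraries. They are at -0.46 to -0.23 in L. brevis and 0.14 to 0.43 in L. plantarum libraries.

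The gene with the lowest p was Lmpt (FBgn0261565), which encodes a LIM domain protein and lies on chromosome 3L at 16865295 to 16922487, plus strand, in BDGP6. Its level was 125, 136 and 134 CPM in brevis 1 to 3 and 219.8, 234 and 252 CPM in plantarum 1 to 3. The groups were far apart and tight, and the germ-free controls, at 210.1 and 251 CPM, lay with L. plantarum. The log2FC was -0.83 (SE 0.09, edgeR adjusted p = 0.000554), and it was called in all 16 alternative settings, with adjusted p-values up to 0.0356. The fold change was -0.48 with the length trend removed.

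Among the ligands and receptors called, vn had the largest fold change. The gene vn (vein, FBgn0003984, chromosome 3L, 5813338 to 5845664, minus strand) encodes a neuregulin-like ligand of the EGF receptor. Its level was 17.0, 17.4 and 18.3 CPM with L. brevis and 53.1, 38.5 and 48.9 CPM with L. plantarum, and the germ-free controls were at 44.2 and 48.6 CPM. All L. brevis libraries thus lay below all others. The log2FC was -1.41 (SE 0.23, edgeR adjusted p = 0.0127), and -1.18 with the length trend removed. S (Star), which takes part in the export of EGF receptor ligands from the endoplasmic reticulum, was at 49.6 to 57.9 CPM with L. brevis and 73.6 to 76.4 CPM with L. plantarum (log2FC -0.45, SE 0.09, edgeR adjusted p = 0.0237). Of 21 EGF receptor pathway genes tested these 2 were called, both lower, beside 1.83% of all genes called lower, and the list's median was -0.06 against 0.01 over all genes. The protease gene rho, which releases EGF receptor ligands, had a log2FC of -0.65 (edgeR adjusted p = 0.0623) and Mkp3, a phosphatase that acts on the pathway's kinase, 0.41 (edgeR adjusted p = 0.052), neither of them called.

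Pvr encodes a receptor related to those for platelet-derived and vascular endothelial growth factors. It was at 21.3, 30.7 and 34.3 CPM with L. brevis and 46.7, 65.5 and 74.5 CPM with L. plantarum. Brevis 1 and plantarum 1 were each the lowest of their group, and the groups did not overlap (log2FC -1.11, SE 0.17, edgeR adjusted p = 0.0103). In the Notch pathway 15 genes were tested, 10 had a negative log2FC and the median was -0.01. EdgeR called 1 of them, lower, beside 1.83% of all genes called lower. This was mib1, a ubiquitin ligase needed to activate Notch ligands, at 33.2 to 40.1 CPM with L. brevis and 46.3 to 65.5 CPM with L. plantarum (log2FC -0.59, SE 0.14, edgeR adjusted p = 0.0371); its exons overlap those of another gene on the opposite strand, and the use of strand in counting is not stated. Notch itself (N) was at 224, 166 and 194 CPM and 212, 193 and 180.1 CPM, overlapping ranges, with a log2FC of -0.00 (SE 0.11, edgeR adjusted p = 0.988). Delta, the Notch ligand that marks stem cells, was at 31.8, 22.4 and 37.3 CPM with L. brevis and 23.1, 20.3 and 21.3 CPM with L. plantarum. Brevis 2 lay inside the L. plantarum range, and the log2FC of 0.50 (SE 0.19) was not called (edgeR adjusted p = 0.160). Of 10 tested Notch target genes 0 were called by edgeR or DESeq2 and 0 had an unadjusted p under 0.05 (median 0.13).

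Of 15 tested regulators of progenitor fate 12 had a negative log2FC, with a median of -0.14. The gene peb alone was called, lower, beside 1.83% of all genes called lower. It encodes the zinc finger protein Hindsight, which acts in enteroblast differentiation, and was at 169, 170.5 and 165 CPM with L. brevis and 185, 268 and 283 CPM with L. plantarum. Plantarum 1 lay close to the L. brevis libraries, as did the germ-free controls at 167 and 159 CPM. The log2FC was -0.55 (SE 0.12, edgeR adjusted p = 0.0336) and -0.19 with the length trend removed, where it was not called; S lost its call there as well (-0.21). Of the 5 calls vn, S, Pvr, mib1 and peb, 1 (vn) was made in the fit on the 6 libraries alone, 1 without brevis 1, 3 without brevis 2, 4 without brevis 3, 5 without plantarum 1, 2 without plantarum 2 and none without plantarum 3 (edgeR adjusted p up to 0.173).

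Several genes of attachment to the matrix were lower with L. brevis. Of 19 tested integrin and adhesion genes 3 were called, all lower, where 1.83% of all genes were called lower; 15 had a negative log2FC and the median was -0.23. The beta integrin gene mys (FBgn0004657, X, 8061645 to 8070237, plus strand) was at 865, 1066 and 1049 CPM with L. brevis and 1342, 1493 and 1551.8 CPM with L. plantarum, without overlap (log2FC -0.56, SE 0.09, edgeR adjusted p = 0.0127). Vinc, encoding vinculin, which links integrin adhesions to actin, was at 287, 377 and 341 CPM and 431, 468 and 562 CPM (log2FC -0.54, SE 0.11, edgeR adjusted p = 0.0255). ItgaPS4, an alpha integrin gene whose exons overlap Trpm on the opposite strand, was at 3.00 to 4.22 and 5.39 to 6.26 CPM (log2FC -0.78, SE 0.17, edgeR adjusted p = 0.0311). The talin gene rhea overlapped between groups, since plantarum 1, at 83.3 CPM, lay below brevis 3, at 87.3 CPM, and it was not called (log2FC -0.81, SE 0.20, edgeR adjusted p = 0.0511).

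Of 17 tested basement membrane genes 2 were called, both lower (1.83% of all genes), 13 were negative and the median was -0.37. The groups did not overlap, with L. brevis lower, in 8 of the 17, which held for 9.14% of all genes. The perlecan gene trol (FBgn0284408, X, 2470460 to 2545427, minus strand) was at 54.9, 54.2 and 62.3 CPM with L. brevis and 78.7, 114 and 109 CPM with L. plantarum. Plantarum 1 was again the nearest to L. brevis, and lay close to the first germ-free control (78.2 CPM). The log2FC was -0.81 (SE 0.13, edgeR adjusted p = 0.0119). Mmp1, a matrix metalloproteinase, was at 187, 213 and 189 CPM and 333, 302 and 277 CPM (log2FC -0.63, SE 0.13, edgeR adjusted p = 0.0255), and its exons overlap Pof on the opposite strand. Dg, encoding dystroglycan, a receptor for laminin and perlecan, was added after its values were seen, at 49.1, 71.4 and 65.4 CPM against 77.9, 119 and 116 CPM (log2FC -0.75, SE 0.15, edgeR adjusted p = 0.0253). The summed defining muscle genes were at 762 CPM in brevis 3 and at 18.02 to 168 CPM in the other 5 libraries, and their part in these values was not tested. Without brevis 3, 4 integrin and 2 basement membrane genes were called, with medians of -0.33 and -0.51. In that fit 367 of all 11761 genes were called. Of the 6 calls mys, Vinc, ItgaPS4, trol, Mmp1 and Dg, 0 were made in the fit on the 6 libraries alone (edgeR adjusted p up to 0.243), 2 without brevis 1, 5 without brevis 2, 5 without brevis 3, 6 without plantarum 1, 1 without plantarum 2 and none without plantarum 3 (edgeR adjusted p up to 0.13). With the length trend removed ItgaPS4 and Mmp1 lost their calls, and the list medians were -0.18 and -0.15.

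Polarity and junction genes included 4 calls among 23 tested, all lower with L. brevis, beside 1.83% of all genes (16 negative, median -0.29). The gene crb, for the apical determinant Crumbs, was at 16.8, 15.8 and 17.2 CPM with L. brevis and 20.2, 28.5 and 27.5 CPM with L. plantarum (log2FC -0.61, SE 0.13, edgeR adjusted p = 0.0268). The groups did not overlap, by a narrow gap at plantarum 1. Nrg, a septate junction protein of the immunoglobulin family, was at 217 to 228 CPM and 274 to 326 CPM (log2FC -0.43, SE 0.07, edgeR adjusted p = 0.0152). For scrib, a septate junction scaffold, and the polarity kinase gene par-1, plantarum 1 lay inside the L. brevis range, at 48.5 CPM against 32.8 to 48.9 CPM and at 277.8 CPM against 239.5 to 278.4 CPM (log2FC values -0.70 and -0.45, edgeR adjusted p = 0.0397 and 0.0377). Adhesion molecules outside the list, named after their values were seen, were also called lower. They were picked with these values known, so their direction is not separate evidence about the list. Nrt (neurotactin) was at 191, 212 and 214 CPM with L. brevis and 335, 354 and 366 CPM with L. plantarum (log2FC -0.77, SE 0.11, edgeR adjusted p = 0.00886), and overlaps mus302 on the opposite strand. The log2FC was -0.40 for Fas2, -0.58 for Fas3 and -0.59 for ed (edgeR adjusted p = 0.0255, 0.0194 and 0.0444). Of these 8 calls, 1 (Nrt) was made in the fit on the 6 libraries alone, 1 without brevis 1, 4 without brevis 2, 8 without brevis 3, 8 without plantarum 1, 1 without plantarum 2 and none without plantarum 3 (edgeR adjusted p up to 0.176). With the length trend removed edgeR called 0 of the 23 polarity genes, whose median was then -0.04, and of these 8 genes Nrt was then called.

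**Figure D3:**
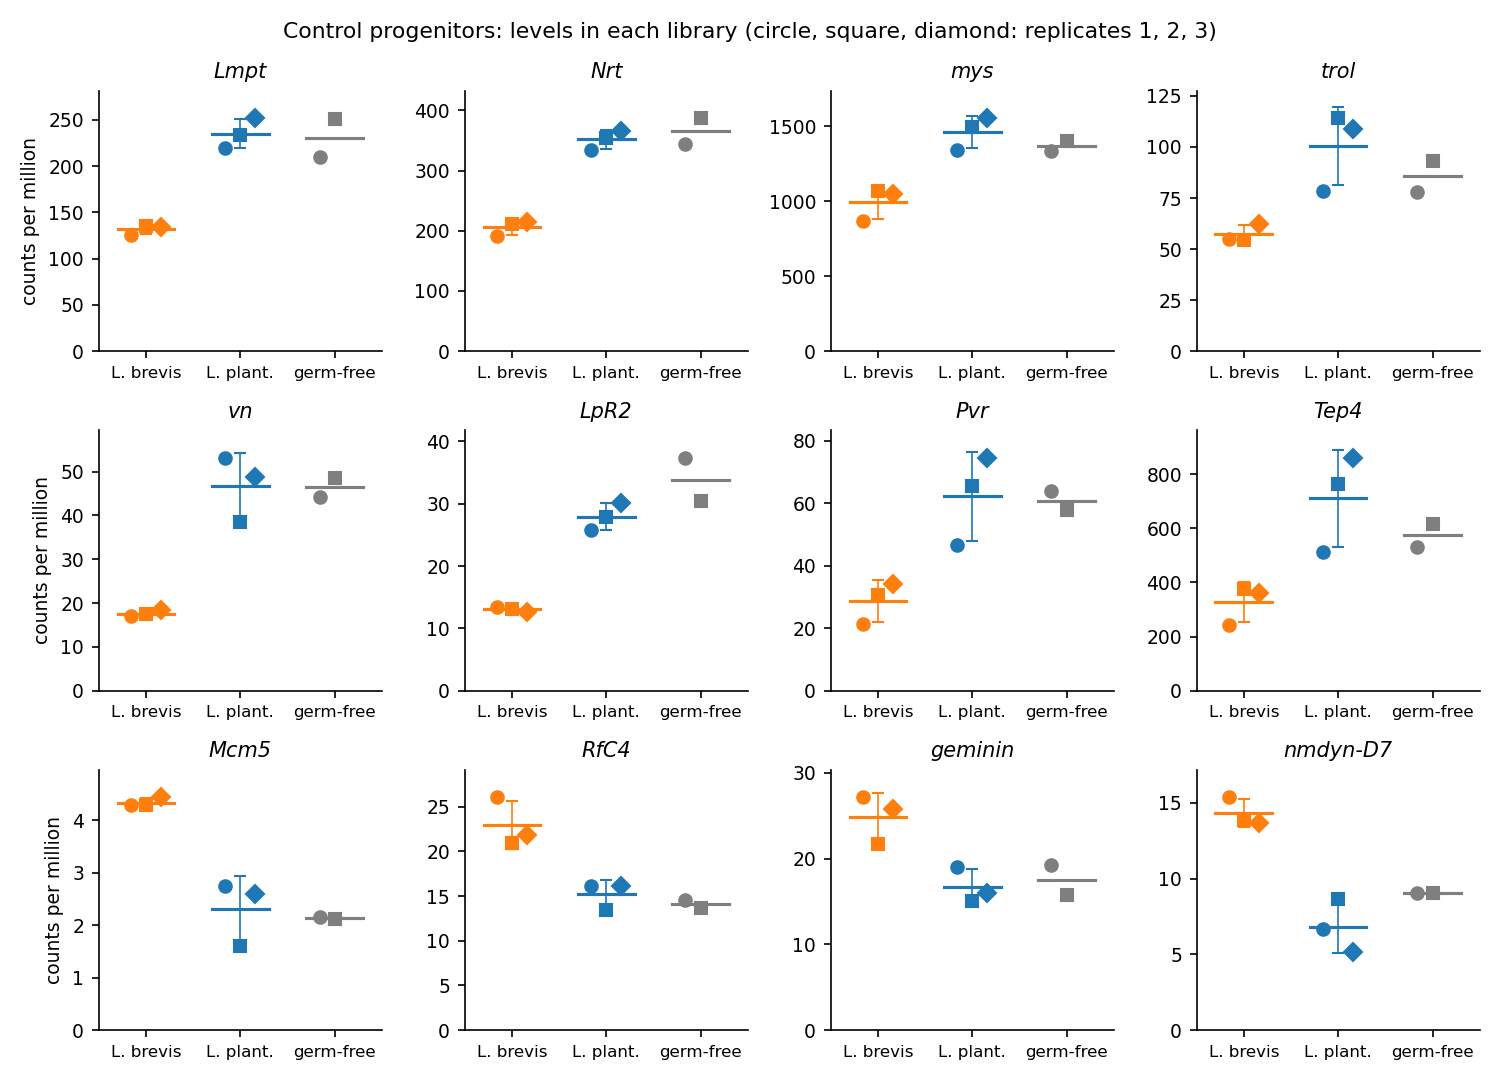
CPM of 12 called genes in each control library, with points for replicates 1 to 3, a bar at the group mean and an error bar of 1 SD for groups of 3. In the 8 genes of the upper rows every L. brevis point lies below every L. plantarum point, in the 4 genes of the lowest row above, and the 2 germ-free points show where flies without bacteria lay.

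Among genes of DNA replication all calls were higher with L. brevis. Of 33 tested, 4 were called, where 0.976% of all genes were called higher, 27 had a positive log2FC and the median was 0.31. In 13 of the 33 the L. brevis libraries lay above all L. plantarum libraries, which held for 11.2% of all genes. Summed over the list, the level was 475, 468 and 466 CPM with L. brevis, 419.5, 403 and 419.9 CPM with L. plantarum, and 388 and 369 CPM in the germ-free controls. RfC4, a subunit of the clamp loader, was at 26.04, 20.9 and 21.9 CPM with L. brevis and 16.1, 13.5 and 16.2 CPM with L. plantarum (log2FC 0.59, SE 0.12, edgeR adjusted p = 0.0267). The replication licensing inhibitor geminin was at 27.1, 21.7 and 25.7 CPM and 19.1, 15.03 and 16.02 CPM (log2FC 0.57, SE 0.14, edgeR adjusted p = 0.0377). Mcm5, part of the replicative helicase, was at 4.28, 4.28 and 4.43 CPM and 2.74, 1.60 and 2.601 CPM (log2FC 0.90, SE 0.23, edgeR adjusted p = 0.0491). DNAlig1, a DNA ligase gene that overlaps Upf3 on the opposite strand, rose by 0.46 (SE 0.11, edgeR adjusted p = 0.0377). In these 4 genes no L. plantarum library reached the lowest L. brevis library. Of the 4 calls, 0 were made in the fit on the 6 libraries alone (edgeR adjusted p up to 0.249), 2 without brevis 2, 1 without brevis 3 and 4 without plantarum 1, and none without brevis 1, plantarum 2 or plantarum 3 (edgeR adjusted p up to 0.188). With the length trend removed RfC4 and geminin lost their calls (log2FC 0.44 and 0.43). The list median was between 0.23 and 0.38 in all 16 alternatives.

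Mitosis genes had both signs. Of 39 tested, 26 were positive and 13 negative with a median of 0.14, and the 2 called, pbl and tacc, were lower with L. brevis (1.83% of all genes). The cytokinesis regulator pbl was at 33.8, 42.6 and 36.5 CPM with L. brevis and 54.2, 66.5 and 64.9 CPM with L. plantarum (log2FC -0.72, SE 0.14, edgeR adjusted p = 0.0253). The centrosomal gene tacc was at 140 to 143 CPM and 174 to 195 CPM (log2FC -0.37, SE 0.08, edgeR adjusted p = 0.0307). Neither was called with the length trend removed (log2FC -0.43 for pbl and -0.07 for tacc). Spc25, a kinetochore component outside the list, was higher with L. brevis, at 3.98, 3.69 and 3.24 CPM against 1.85, 1.14 and 2.07 CPM (log2FC 1.10, SE 0.24, edgeR adjusted p = 0.030). The groups did not overlap in any of these 3 genes. All 3 were called without brevis 3 or plantarum 1, pbl alone without brevis 2, and none without brevis 1, plantarum 2 or plantarum 3 (edgeR adjusted p up to 0.147) or in the fit on the 6 libraries alone.

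Most mitochondrial genes had small positive fold changes. Of 72 mitochondrial ribosomal protein genes 67 had a positive log2FC (median 0.17, 2 called, both higher). Of 71 respiratory chain genes 67 did (median 0.14, 2 called, both higher), beside 0.976% of all genes called higher. In 19 of the 72 and 8 of the 71 every L. brevis library lay above every L. plantarum library, which held for 11.2% of all genes. The summed levels of both lists overlapped between groups, with brevis 3 (2721.5 and 18144 CPM) below plantarum 1 (2853.6 and 18826 CPM). The called genes were mRpL4 at 32.3 to 35.6 against 23.7 to 26.8 CPM, mRpS18A at 42.0 to 58.1 against 35.5 to 38.8 CPM, the complex III gene UQCR-11 at 182 to 231 against 141 to 151 CPM and the complex I gene ND-49 at 228 to 238 against 188 to 203 CPM. Their log2FC values were 0.42, 0.45, 0.50 and 0.26 (edgeR adjusted p = 0.0255, 0.0448, 0.0371 and 0.0393). Of these 4, 1 was called without brevis 2, 3 without brevis 3, 4 without plantarum 1, and none without brevis 1, plantarum 2 or plantarum 3 (edgeR adjusted p up to 0.19) or in the fit on the 6 libraries alone (up to 0.25); with the length trend removed only mRpS18A was. Genes of the cytosolic ribosome had the opposite sign. Of 86 tested 80 had a negative log2FC, with a median of -0.23, and 49 had every L. brevis library below every L. plantarum library, which held for 9.14% of all genes, but 0 were called by edgeR, with 33 at an unadjusted p under 0.05. Over all 11786 genes 2519 had such a p. DESeq2 called 6 of the cytosolic ribosome genes lower, and 570 of all genes. With the length trend removed edgeR called 32 of the 86, all lower, with a median of -0.36. In that fit 227 of all 11786 genes were called lower. The gene sta, which encodes a ribosomal protein outside that list, was called, at 1503, 1498 and 1388 CPM against 1894, 2016 and 2183 CPM (log2FC -0.47, SE 0.11, edgeR adjusted p = 0.038), and its germ-free controls, 1497 and 1515 CPM, lay with L. brevis.

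**Figure D4:**
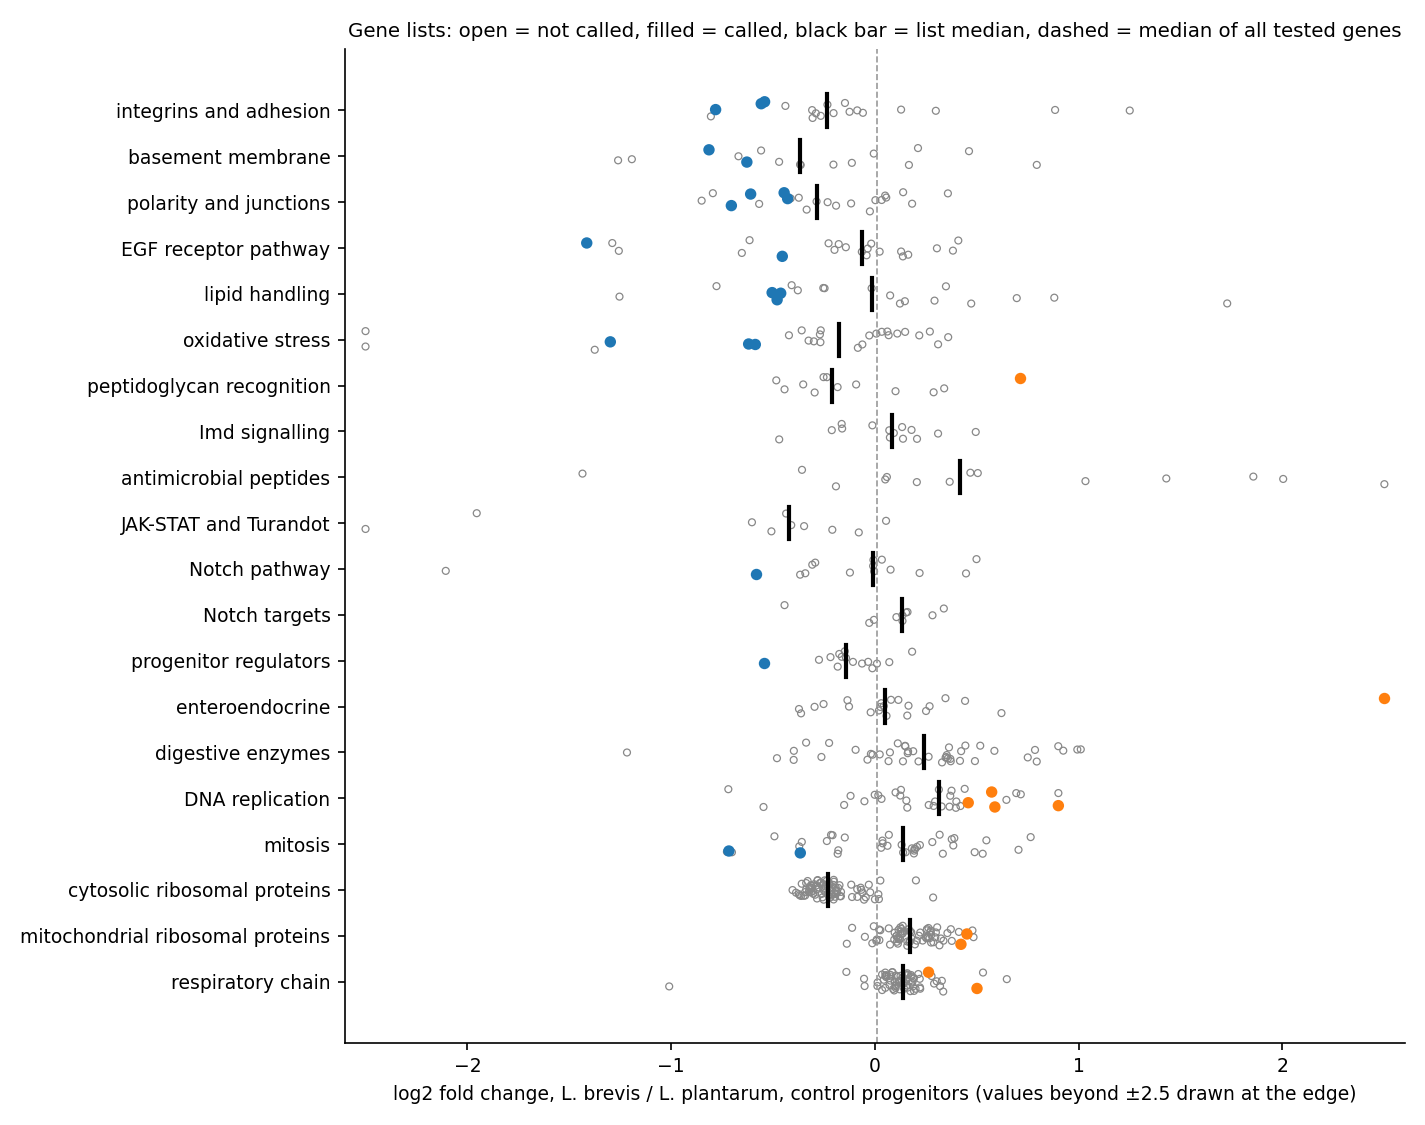
Log2 fold change of each tested member of 20 gene lists (x axis, L. brevis over L. plantarum), with called genes filled, list medians as black bars and the median of all genes dashed. Adhesion, matrix, polarity and cytosolic ribosome medians lie at -0.37 to -0.23, DNA replication at 0.31, and no antimicrobial peptide gene is called.

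Lipid and nutrient genes included single falls. LpR2, a lipoprotein receptor, was at 13.4, 13.2 and 12.7 CPM with L. brevis, 25.8, 27.9 and 30.1 CPM with L. plantarum and 37.3 and 30.4 CPM in germ-free controls (log2FC -1.09, SE 0.15, edgeR adjusted p = 0.00886). The lipid phosphate phosphatase gene wun2 was at 39.6, 37.6 and 37.2 CPM with L. brevis and 62.97, 78.7 and 92.6 CPM with L. plantarum, but here the germ-free controls, 39.5 and 37.6 CPM, were at the level of L. brevis (log2FC -1.03, SE 0.15, edgeR adjusted p = 0.00886). Of 19 lipid handling genes 3 were called, all lower (1.83% of all genes). These were SREBP, the transcription factor of lipid synthesis, its activating partner SCAP and the fatty acid synthase gene FASN1, with log2FC values of -0.48, -0.50 and -0.46 (edgeR adjusted p = 0.0336, 0.0383 and 0.0375), while 9 of the 19 were positive and the median was -0.02. With the length trend removed SREBP was called and FASN1 and SCAP were not (log2FC -0.13 and -0.23). Ogdh, encoding an enzyme of the citric acid cycle, was at 286 to 294 CPM with L. brevis and 402 to 447 CPM with L. plantarum (log2FC -0.57, SE 0.08, edgeR adjusted p = 0.00807), with exons that overlap other genes on both strands, and it was not called with the length trend removed (log2FC -0.31). LpR2, wun2 and Ogdh were called in 5 of the 6 fits without a library, all but that without plantarum 3 (edgeR adjusted p = 0.0627 for each). In the fit on the 6 libraries alone LpR2 was the only 1 of these 6 genes to be called. SREBP was called without brevis 2 or plantarum 1, FASN1 without brevis 3 or plantarum 1 and SCAP without plantarum 1, and they were not called in the other fits without a library (edgeR adjusted p up to 0.178).

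Among detoxification genes 3 glutathione S-transferase genes of 1 cluster were lower with L. brevis. They are the calls among 26 oxidative stress genes, beside 1.83% of all genes called lower. GstD2 was at 92.7, 138 and 110.3 CPM with L. brevis and 270.1, 276 and 293 CPM with L. plantarum (log2FC -1.30, SE 0.31, edgeR adjusted p = 0.0463), and GstD3 and GstD5 had log2FC values of -0.62 and -0.59 (edgeR adjusted p = 0.0301 and 0.0491). Reads may be split among these near copies, so the single values are uncertain. Tep4, a complement-like protein gene, was at 243, 378 and 362 CPM with L. brevis and 513, 763 and 861 CPM with L. plantarum (log2FC -1.12, SE 0.17, edgeR adjusted p = 0.0124), and Tep2 changed by -0.93 (edgeR adjusted p = 0.0172). Of 12 peptidoglycan recognition genes 8 had a negative log2FC, with a median of -0.21. DESeq2 called 1 of them higher and 2 lower, where it called 289 and 570 of all 11786 genes. EdgeR called 1, higher, beside 0.976% of all genes called higher. This was PGRP-LD, at 13.8 to 15.7 against 7.77 to 10.7 CPM (log2FC 0.71, SE 0.17, edgeR adjusted p = 0.038). Its exons overlap Pmi on the same strand, and Cralbp and the antisense RNA asRNA:CR45026 on the opposite strand. The antisense RNA rose as well (0.88, edgeR adjusted p = 0.0375), and it cannot be told apart from PGRP-LD without strand. Of the 6 calls GstD2, GstD3, GstD5, Tep2, Tep4 and PGRP-LD, 1 (GstD2) was made in the fit on the 6 libraries alone, 1 without brevis 1, 2 without brevis 2, 4 without brevis 3, 6 without plantarum 1, 1 without plantarum 2 and none without plantarum 3 (edgeR adjusted p up to 0.175).

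EdgeR called 0 of 14 Imd pathway genes, 14 antimicrobial peptide genes and 10 JAK-STAT pathway and Turandot genes. It also called 0 of 12 JNK pathway and 22 heat shock genes. In this order 4, 1, 2, 5 and 1 had an unadjusted p under 0.05, as had 2519 of all 11786 genes. DESeq2 called 1 Imd gene, lower, and 2 JNK pathway genes, 1 higher and 1 lower, where it called 859 of all genes. The medians were 0.08, 0.42, -0.42, -0.11 and -0.16. The Imd transcription factor gene Rel was at 556, 826 and 713 CPM with L. brevis and 807, 978 and 1115 CPM with L. plantarum, where brevis 2 lay above plantarum 1 (log2FC -0.47, SE 0.13, edgeR adjusted p = 0.0643). The cytokine gene upd3 was at 92.6 to 122 CPM and 109.8 to 159 CPM, overlapping (log2FC -0.35, SE 0.14, edgeR adjusted p = 0.175). The tumour necrosis factor gene egr was at 37.6 to 40.8 CPM and 27.7 to 32.9 CPM without overlap, and was not called (log2FC 0.40, SE 0.11, edgeR adjusted p = 0.0581).

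The lists of genes of differentiated cells held 0 or 1 call each, which is read as no result about them, since 2.81% of all genes were called. In sorted bulk cells, fewer cells of a type and less RNA per cell cannot be told apart. Of 44 digestive enzyme genes 0 were called by edgeR or DESeq2 and 0 had an unadjusted p under 0.05, 33 were positive and the median was 0.24. Jon25Bii, a serine protease gene, was at 322 to 418 CPM with L. brevis and 126 to 316 CPM with L. plantarum (log2FC 0.75, SE 0.48, edgeR adjusted p = 0.394). Of 22 enteroendocrine genes nerfin-1 was called, at 2.09, 0.823 and 0.518 CPM against 0.259, 0 and 0.191 CPM, a change that rests on few counts (log2FC 2.85, SE 0.66, edgeR adjusted p = 0.0383). Myo31DF, a myosin used as an enterocyte marker, was called lower, at 211, 299.9 and 283 CPM against 349, 453 and 441 CPM (log2FC -0.65, SE 0.12, edgeR adjusted p = 0.0205), and overlaps an antisense RNA. Both calls were lost without brevis 1, plantarum 2 or plantarum 3, and that of nerfin-1 without brevis 2 (edgeR adjusted p up to 0.15). Both were also lost in the fit on the 6 libraries alone (edgeR adjusted p up to 0.256). Of 24 visceral muscle genes 0 were called by edgeR or DESeq2, 1 had an unadjusted p under 0.05, 19 were positive and the median was 1.33. Summed over the list the level was 2092 to 3254 CPM with L. brevis and 3101 to 4100 CPM with L. plantarum, of which Msp300, a nuclear anchoring protein gene not limited to muscle, made up 1384 to 1652 and 2331 to 3154 CPM. None of the 8 defining muscle genes was at 0 in any of the 6 libraries, and Mhc was at 0.641, 0.296 and 32.3 CPM with L. brevis and 0.518, 11.96 and 1.26 CPM with L. plantarum.

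The largest rises and falls by the naming rule include genes with little known background. The 12 rises ran from 0.75 (Eglp2, an aquaporin family gene) to 1.13 (Zip48C, a zinc transporter gene). Zip48C was at 40.3, 48.7 and 25.7 CPM with L. brevis and 17.1, 15.4 and 20.04 CPM with L. plantarum, with brevis 3 the nearest to the other group (SE 0.20, edgeR adjusted p = 0.017). The gene nmdyn-D7, of the nucleoside diphosphate kinase family, was at 15.4, 13.9 and 13.7 CPM and 6.66, 8.63 and 5.16 CPM (log2FC 1.07, SE 0.17, edgeR adjusted p = 0.0119), and overlaps CG9444 on the opposite strand. The others were Spc25, Mcm5, CG10943, CG4424, asRNA:CR45026, CG31898, CG4186, CG32196 and tef, which acts in male meiosis, with log2FC values of 0.76 to 1.10. For CG10943 the germ-free controls, at 25.1 and 16.2 CPM, were above the L. plantarum libraries (5.15, 6.99 and 10.8 CPM) and at or above the level of L. brevis (13.8, 18.5 and 14.9 CPM). For Eglp2 and asRNA:CR45026 the germ-free libraries lay apart from each other, at 56.5 and 32.3 CPM and at 7.95 and 4.15 CPM, with means nearer to L. brevis on a log2 scale. Of the 12 calls, 0 were made in the fit on the 6 libraries alone (edgeR adjusted p up to 0.249), 1 without brevis 1, 5 without brevis 2, 7 without brevis 3, 12 without plantarum 1, 1 without plantarum 2 and 1 without plantarum 3 (edgeR adjusted p up to 0.202). Removal of the length trend left 7, and CG10943, CG4424, asRNA:CR45026, CG31898 and Eglp2 lost theirs (up to 0.114).

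The 12 falls ran from -1.76 to -1.19. Ziz, a guanine nucleotide exchange factor gene of the DOCK family, was at 1.25, 0.758 and 1.49 CPM with L. brevis and 2.18, 5.14 and 4.59 CPM with L. plantarum (SE 0.30, edgeR adjusted p = 0.0127). CG31183 was at 1.28, 3.10 and 3.01 CPM and 7.40, 7.45 and 8.87 CPM (log2FC -1.68, SE 0.28, edgeR adjusted p = 0.0127), and its germ-free controls, at 9.25 and 8.81 CPM, lay with L. plantarum. Spt20, of the SAGA transcription complex, was at 4.08, 5.17 and 5.89 CPM and 8.44, 14.0 and 15.8 CPM (log2FC -1.34, SE 0.22, edgeR adjusted p = 0.0127). The small RNA gene scaRNA:MeU5-C46 was at 8.20, 7.61 and 6.02 CPM and 8.37, 26.02 and 22.7 CPM, so that plantarum 1 was almost at the level of brevis 1 (log2FC -1.38, SE 0.30, edgeR adjusted p = 0.0319). The remaining falls, besides vn and GstD2, were slow, Mics1, CG31191, Usp32, Ptip and FBgn0029082, which the annotation used here does not name. Of the 12 calls, 2 (vn and GstD2) were made in the fit on the 6 libraries alone, 2 without brevis 1, 6 without brevis 2, 10 without brevis 3, 12 without plantarum 1, 2 without plantarum 2 and none without plantarum 3 (edgeR adjusted p up to 0.207), and 11 with the length trend removed, all but Ptip.

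Of the called genes with the highest mean CPM, all 5 were lower with L. brevis: Ubi-p63E (polyubiquitin), sta, mys, LamC (a lamin) and Fim (the actin bundler fimbrin). Ubi-p63E was at 1767, 1949.5 and 2309 CPM with L. brevis and 2574, 2539.5 and 2706 CPM with L. plantarum (log2FC -0.38, SE 0.09, edgeR adjusted p = 0.0383). LamC and Fim were at 1022 to 1105 and 860 to 1017 CPM with L. brevis and at 1172 to 1484 and 1175 to 1325 CPM with L. plantarum (log2FC values -0.35 and -0.47, edgeR adjusted p = 0.0393 and 0.0213). Of the 5 calls, 2 were made without brevis 2, 4 without brevis 3, 4 without plantarum 1, 1 without plantarum 2 and none without brevis 1 or plantarum 3 (edgeR adjusted p up to 0.173) or in the fit on the 6 libraries alone (up to 0.251). Fim lost its call with the length trend removed (log2FC -0.29, edgeR adjusted p = 0.135). Germ-free controls were at 1035 and 1133 CPM for LamC and at 927 and 955 CPM for Fim, nearer to L. brevis, whereas those of mys, at 1333 and 1404 CPM, were nearer to L. plantarum. Over all called genes the germ-free mean was nearer to the L. plantarum mean, on a log2 scale, for 176 of the 216 lower genes (81.5%) and 95 of the 115 higher genes (82.6%), and so it was for 59.9% of all tested genes. The L. brevis and L. plantarum libraries in this description are those that chose the genes. The longest genes relative to the shortest, on the log2 measure given above, were at 0.17 and 0.35 in the germ-free controls. They were at -0.44 to 0.08 in the L. brevis and -0.05 to 0.26 in the L. plantarum libraries. The part of length in the nearness to germ-free controls was not tested.

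The same comparison in flies with Notch RNAi used 6 other libraries. There 1692 genes were called (14.4%). Of the 331 genes called in controls 310 had the same sign under Notch RNAi (93.7%), against 68.1% of all tested genes, and 171 were called in both, all with the same sign, which is 51.7% of the control calls and 10.1% of the Notch RNAi calls. The median log2FC by length was also alike, at -0.26 for the longest and 0.04 for the shortest class of genes, and its part in the shared signs was not tested. Log2 fold changes under Notch RNAi were -1.23 for vn, -1.03 for Pvr, -1.17 for Tep4, 0.52 for RfC4 and 0.58 for geminin (edgeR adjusted p = 0.00694, 0.00443, 0.00379, 0.0155 and 0.0146). Mcm5 was at 0.63 and not called there (edgeR adjusted p = 0.0574).

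The difference between the genotypes was tested as an interaction, which called 2 genes (0.017%, edgeR), with 1107 at an unadjusted p under 0.05. For Lmpt the fall with L. brevis in controls had no counterpart under Notch RNAi, where it was at 193, 207 and 206 CPM with L. brevis and 211, 184 and 210.2 CPM with L. plantarum, overlapping (log2FC 0.00; interaction -0.84, SE 0.12, edgeR adjusted p = 0.0338). For E(spl)malpha-BFM, a Notch target of the E(spl) complex, control levels overlapped, at 261, 229 and 249 CPM with L. brevis and 254, 236 and 253 CPM with L. plantarum (log2FC -0.01). Under Notch RNAi it was at 23.6, 19.3 and 17.4 CPM with L. brevis and 5.58, 7.998 and 9.37 CPM with L. plantarum, apart by 1.39 on the log2 scale (interaction -1.39, SE 0.21, edgeR adjusted p = 0.0338). In the same libraries N, the target of the RNAi, was at 79.8, 82.9 and 71.3 CPM with L. brevis and 52.7, 62.8 and 62.1 CPM with L. plantarum, higher with L. brevis as well (log2FC 0.40, SE 0.11, edgeR adjusted p = 0.0265). The part of this difference in N was not tested. Other Notch targets had both signs under Notch RNAi. The log2FC was -0.57 for klu and 1.78 for E(spl)m6-BFM (edgeR adjusted p = 0.0139 and 0.0298), the latter at 0.332 to 2.92 CPM. It was -0.09 for E(spl)m3-HLH and 0.87 for E(spl)mgamma-HLH, which were not called (edgeR adjusted p = 0.840 and 0.0525). Neither interaction was called when only the 12 libraries of these 4 groups were fitted (edgeR adjusted p = 0.0891 for Lmpt and 0.221 for E(spl)malpha-BFM), and of the 6 fits without a control library that without plantarum 1 alone called that of Lmpt (0.0227), the others giving 0.070 to 0.133. Among the genes above, pbl had the opposite sign under Notch RNAi (0.27 against -0.72), but the interaction of -0.98 was not called (edgeR adjusted p = 0.204).

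**Figure D5:**
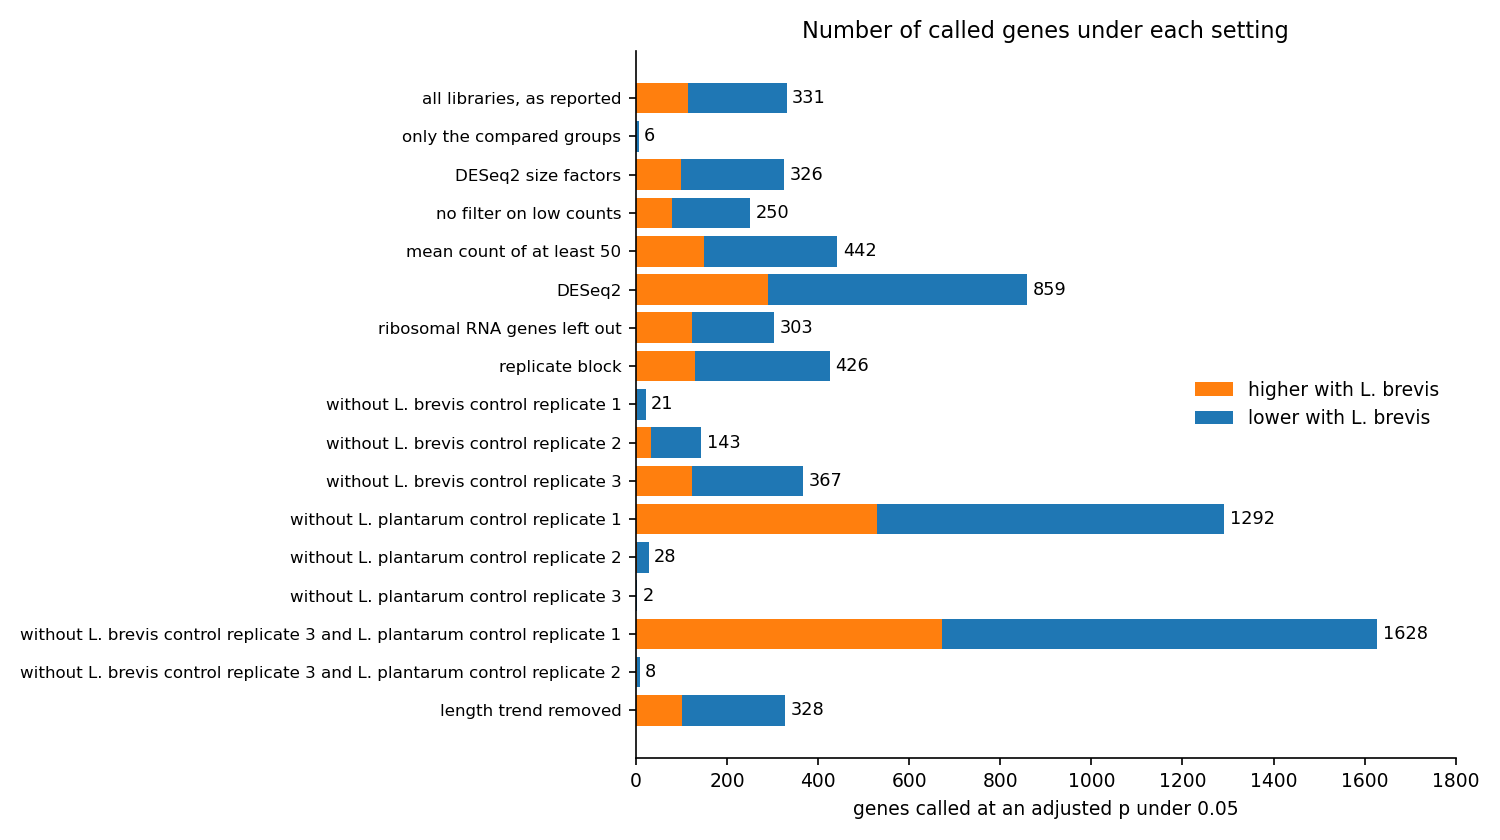
Number of genes called at an adjusted p under 0.05 (x axis), higher (orange) and lower (blue) with L. brevis, in the reported fit and in 16 alternatives (y axis). The count is 331 as reported, 2 without plantarum 3 and 1628 without both brevis 3 and plantarum 1.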

How the data were processed

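The authors deposited a table of raw read counts, whole numbers, for 17737 FlyBase gene identifiers. Per the submitters' processing notes, FastQC, Trimmomatic, HISAT2, SAMtools and edgeR were used, in no stated order; the genome build, annotation, counting tool and use of strand are not given in the sources used here. Symbols matched 17599 identifiers, and coordinates and exon lengths are those of the Ensembl annotation of BDGP6, which may not be the authors' build. Of 92 genes followed over the alternatives, 25 share exon bases with another gene, and the overlap is given above for some of them. Tep2, SREBP, tacc, mRpL4, ed, par-1 and rhea are among the others. The genes named by the symbols esg and scb were not analysed here.

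The tests were run with edgeR 4.0.16 under R 4.3.3 (robust quasi-likelihood test, TMM scaling). Genes were kept by filterByExpr by group, which left 11786 carrying 99.98% of the counts. The fit took the 6 group means of all 17 libraries, and the spread of each gene was estimated over all groups together. The common biological coefficient of variation, a summary over genes, was 0.2305. Benjamini-Hochberg adjustment covered all tested genes, with calls at an adjusted p under 0.05. CPM are TMM-scaled, and an SE is the absolute log2 fold change over the square root of F. DESeq2 1.42.0, 2 other filters, DESeq2 size factors, omission of ribosomal RNA genes, a replicate block, fits without single libraries or pairs, and removal of the trend with exon length were alternatives. P-values measure the spread between pooled sorts, and depth sets only counting error.

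Replicates are distinct libraries: their counts differed beyond sampling noise in all pairs (chi-square per degree of freedom 29.7 to 134.7). On simulated counts for this comparison (11664 genes), 17% of genes changed 1.5-fold, 74% of those changed 2-fold and 96% of those changed 4-fold were recovered, with 6 false among 108 calls. The changed genes were drawn only from those above a minimum expected count, so recovery among genes with few counts was not tested. Recovery and false calls in the presence of shifts shared by many genes of a library, such as the length trend, were not tested. In the authors' deposited table of this comparison, the log2 fold changes are for 10201 genes and correlated with those computed here at r = 1 across genes. The p-values and false discovery rates there are the authors' own; 523 genes in the authors' deposited table have a rate under 0.05, and 315 of the 331 genes called here are among them with the same sign.

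Named genes are N and Delta, the 12 largest rises and falls among called genes without overlap and with 50 or more counts in every library on the higher side, the 5 most abundant called genes, up to 4 members of each list with the lowest p, the called interaction terms, and the genes said to be added afterwards, which include the 10 with the lowest p. Genes, lists and rule were chosen with earlier results of these data known.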

Additional observations from a re-analysis of the deposited data

Results flagged for a closer look

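The effect of L. brevis against L. plantarum differed between control and Notch RNAi progenitors in 2 genes by the interaction test. For E(spl)malpha-BFM the interaction was -1.39 on the log2 scale (SE 0.21, edgeR adjusted p = 0.0338). In controls its groups overlapped, and under Notch RNAi all 3 L. brevis libraries lay above all 3 L. plantarum libraries, at levels of 5.58 to 23.6 CPM. There N, the target of the RNAi, was also higher with L. brevis, at 71.3 to 82.9 against 52.7 to 62.8 CPM, and its part was not tested. The Notch targets klu and E(spl)m6-BFM differed with opposite signs there (log2FC -0.57 and 1.78, edgeR adjusted p = 0.0139 and 0.0298). For Lmpt the interaction was -0.84 (SE 0.12, edgeR adjusted p = 0.0338), with all 3 L. brevis libraries below all 3 L. plantarum libraries in controls and overlapping groups under Notch RNAi. Over the 16 alternatives the adjusted p ran from 7.11e-07 (DESeq2) to 0.221 for E(spl)malpha-BFM and to 0.164 for Lmpt. E(spl)malpha-BFM was not called in any of the 6 edgeR fits without a control library (0.070 to 0.133), and Lmpt only in that without L. plantarum replicate 1 (0.0227, with 0.070 to 0.133 in the other 5).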

How the results depend on the processing

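The count of called genes was 331, and 326, 250, 442, 303 and 328 with DESeq2 size factors, no filter, a mean count of at least 50, ribosomal RNA genes left out and the length trend removed. It was 6 in the fit on the compared groups and 859 with DESeq2 (289 higher, 570 lower). Leaving out 1 library gave 2 to 1292, leaving out L. brevis replicate 3 with L. plantarum replicate 1 gave 1628 (673 higher, 955 lower), and with L. plantarum replicate 2, a pair added after seeing the data, 8. The interaction called 2 genes, 0 with the compared groups alone (975 at an unadjusted p under 0.05 by edgeR), 65 with DESeq2, 0 to 2 without 1 library, 0 without either pair and 0 with the length trend removed. Same-numbered libraries of the groups did not deviate together (correlations 0.18, -0.01 and -0.03), so the numbers were not taken to pair them; with the replicate block the count was 426 (129 higher, 297 lower) and the interaction called 11. All 70 called genes named kept their sign in all 16 alternatives, and 1, Lmpt, was called in each. Where groups do not overlap, a sign kept without 1 library was largely set in advance. The near-zero fold changes reversed sign in some alternatives. That of N was 0.0029 with no filter, 0.012 with ribosomal RNA genes left out, 0.056 without L. brevis replicate 3 and L. plantarum replicate 1, 0.33 with the length trend removed and -0.12 to 0.098 without 1 library. That of E(spl)malpha-BFM was 0.0021, 0.012 and 0.0020 in the first 3 of these and -0.049 to 0.044 without 1 library. The causes of these differences were not tested. No summary of the ovary list was made at a mean count of at least 50, which left none of its genes.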

Other observations

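Among genes listed as markers of the Malpighian tubule, the renal organ that joins the gut, all 8 tested had a positive log2FC of L. brevis over L. plantarum (median 1.57). EdgeR called 0 of them, 3 had an unadjusted p under 0.05 and DESeq2 called 3 higher. Over all 11786 genes 2519 had such a p, and DESeq2 called 289 higher. CG14963 was at 8.74, 37.9 and 6.80 CPM with L. brevis and at 7.18, 4.55 and 6.81 CPM with L. plantarum. Its log2FC was 1.52 with SE 0.49, and edgeR's adjusted p was 0.107. Irk3, which encodes an inwardly rectifying potassium channel, was at 6.27, 24.5 and 3.50 CPM with L. brevis and at 1.96, 1.05 and 1.34 CPM with L. plantarum. Its log2FC was 2.97 with SE 0.95, and edgeR's adjusted p was 0.109. L. brevis replicate 2 was the highest library for both genes, and the groups overlapped for CG14963. The part of tubule RNA in the calls was not tested.

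Neuronal genes had the opposite sign, with all 8 tested negative and a median of -0.26. EdgeR called 0 of them, 1 had an unadjusted p under 0.05 and DESeq2 called 1 lower. Over all 11786 genes 2519 had such a p, and DESeq2 called 570 lower. The calcium channel gene cac was at 14.7, 17.8 and 23.6 CPM with L. brevis and at 29.1, 32.2 and 42.5 CPM with L. plantarum, without overlap. Its log2FC was -0.89 with SE 0.23, and edgeR's adjusted p was 0.052.

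Of 17 glycolysis genes, edgeR and DESeq2 each called 0, 3 had an unadjusted p under 0.05, and the median log2FC was 0.03. The hexokinase gene Hex-A, which had the lowest p of these genes, was at 347, 369 and 368 CPM with L. brevis and at 447, 421 and 408.5 CPM with L. plantarum. Its log2FC was -0.24 with SE 0.09, and edgeR's adjusted p was 0.172.

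Summed fat body markers were at 1.41 to 2.70 CPM and summed ovary markers at 3.14 to 4.91 CPM over the 6 libraries. The haemocyte list summed to 270.02 to 353.46 CPM, of which 257.30 to 338.69 CPM came from crq, a scavenger receptor gene, while the haemocyte gene Hml had no read in any L. brevis library.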
